A study of Homo sapiens with 2 samples.

Results

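Genes for enzymes that add or remove acetyl and methyl groups on chromatin were examined in HepG2, a human hepatoma cell line, after 4 h in 40 µM berberine chloride, a plant alkaloid. The control culture received 0.08% DMSO, the solvent of the 50 mM berberine stock, for the same time, and no other agent or genetic change separated the cultures. RNA from either culture went onto 1 Illumina HumanHT-12 v4 BeadChip, so there was 1 array per group. No replicates existed, and no difference below carries a test or a replicate check. The members were all genes with a symbol of the HDAC, SIRT, KDM, KAT or JMJD number series in the platform annotation, together with EP300, CREBBP, TET1 and TET2, apart from the gene left out in processing. This gave 53 of 20046 annotated genes, with 78 probes. TET3 matched no probe in the annotation and was not analysed here.

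Lysine acetyltransferases (KATs) place acetyl groups on histone tails, which loosens nucleosomes and recruits bromodomain proteins. Zinc-dependent histone deacetylases (HDACs) and NAD+-dependent sirtuins remove them. Methyl groups on lysine are taken off by the flavin enzymes KDM1A and KDM1B and by Jumonji C (JmjC) enzymes, which use iron, oxygen and oxoglutarate, and TET enzymes use the same cofactors to oxidise methylcytosine in DNA. In liver cells these enzymes set the activity of metabolic, growth and stress genes, and their transcripts are mostly of low abundance.

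Of the 47231 probes on each array, 32.5% (control) and 32.6% (berberine) were detected, that is, brighter than negative-control beads at a detection p under 0.01. A measured gene had at least 1 probe that passed this limit on each array, and the brightest of these gave its value. All 10 hepatocyte markers were measured and none differed by over 1.5-fold (median log2 difference -0.04). No fibroblast marker (0 of 6) or endothelial marker (0 of 4) was detected on both arrays. Of 5 immune cell markers on the array, CD68 and LYZ were measured, with log2 differences of 0.30 and 0.29, while PTPRC, CD14 and CD3E were not detected on both arrays. Whether these markers bear on any member was not tested.

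Among the 53 members, 32 were measured, 3 were detected on the control array only, 1 on the berberine array only and 17 on neither. The 17 undetected genes were carried by 23 probes with a non-normalized intensity of 104 to 141 (control) and 107 to 147 (berberine). The lowest detected intensity on the same arrays was 142 and 152. In this range a gene's transcript level could not be read, and no statement about its presence or absence is made. Of the 32 measured members, 28 rested on 1 detected probe and 4 on several.

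After background correction and quantile normalization, 4 measured members were over 1.5-fold higher in berberine-treated cells and 0 were over 1.5-fold lower. Over all 9128 measured genes 3.87% were over 1.5-fold higher and 4.09% lower. All 4 higher members were JmjC proteins, KDM7A, KDM6A, JMJD1C and KDM5C, and the remaining 28 lay between -0.43 and 0.49 on the log2 scale. The median log2 difference of the 32 members was -0.03, against -0.01 over all measured genes, and 15 of 32 were above 0, against 47.5% of all measured genes. The deposited normalized values retain the background, which makes folds of dim probes smaller, and in them 1 member (KDM6A) was over 1.5-fold higher and 0 lower, against 1.44% and 1.01% of all measured genes.

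**Figure D1:**
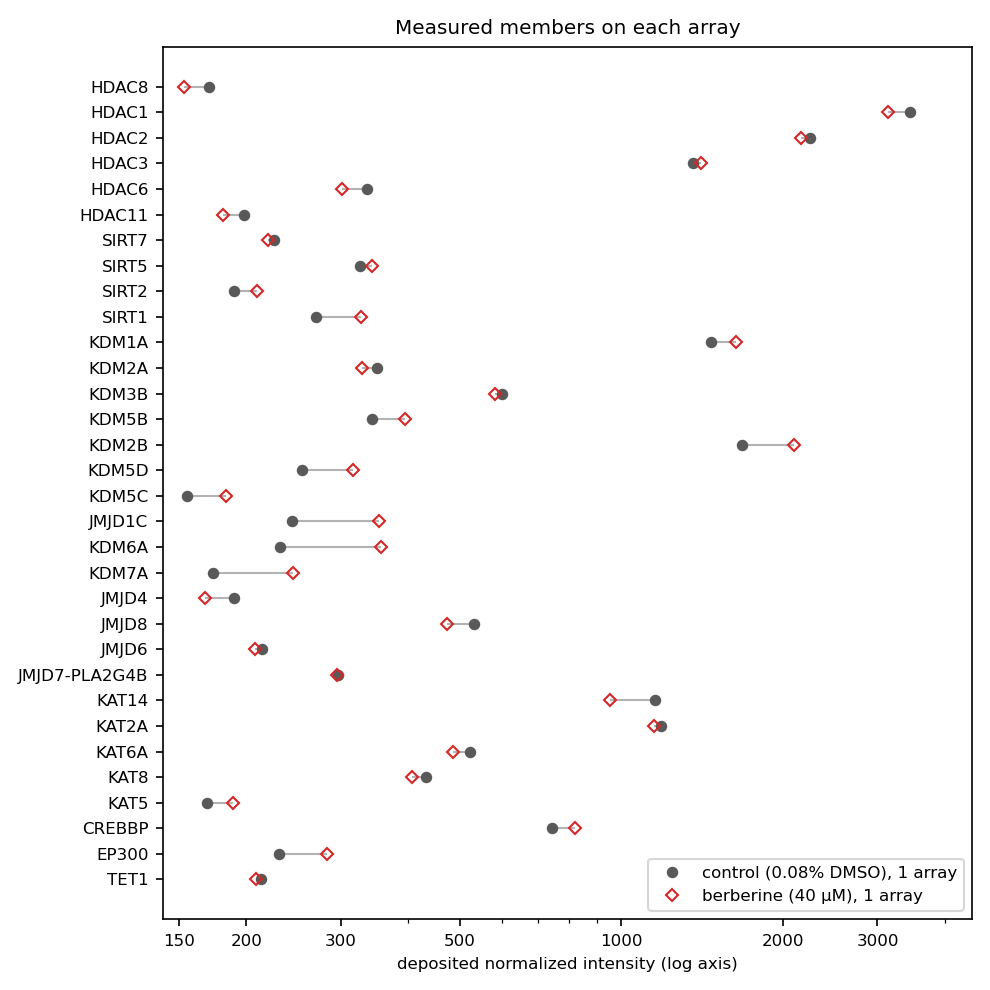
Deposited normalized intensity (log axis) of the 32 measured members in control (filled circles) and berberine-treated (open diamonds) cells, 1 array each, in order of role. Most pairs lie close together, and the widest gaps are those of KDM6A (232 and 356), JMJD1C (243 and 354) and KDM7A (174 and 244).

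KDM7A, a JmjC enzyme that removes repressive methyl marks from histone H3, had deposited normalized intensities of 174 (control) and 244 (berberine), the order kept in all pairs of values here. It was 2.01-fold higher after background correction, with a log2 difference of 1.01, and 90 of the 9128 measured genes had a larger one. KDM6A (UTX), which removes the Polycomb methyl mark from histone H3, had intensities of 232 and 356. It was 1.95-fold higher, a log2 difference of 0.97, with 100 genes above it. These values placed both among the upper 4 of the 32 members on each scale used, and KDM6A alone stayed over 1.5-fold (1.54-fold) in the deposited values, where KDM7A was 1.41-fold higher.

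JMJD1C, a large JmjC coregulator related to the enzymes that remove methyl groups at silent chromatin, had intensities of 243 and 354. It was 1.79-fold higher, a log2 difference of 0.84, and 1.46-fold higher in the deposited values. A second detected probe for the same transcript had intensities of 203 and 275 and a log2 difference of 0.77, so the readable probes of JMJD1C gave close values, and a further probe was undetected. A probe pair of 1 gene gives the only measure of error on these arrays. Over 2189 probe pairs of genes outside the members, the SD of a single probe was 0.25 on the log2 scale, 0.31 where the dimmer probe had a mean below 7 and 0.20 where it was brighter. This SD does not include the spread between cultures.

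KDM5C, which removes the methyl mark of active promoters, was 1.55-fold higher, a log2 difference of 0.63, from intensities of 155 and 183. The call was close to the detection limit. Its non-normalized control intensity was 147, close to the lowest detected value of 142, and its fold was 1.18 in the deposited values. Of the 32 measured members, 10 had a mean log2 value below 7, and 2 of these (KDM5C and KDM7A) were over 1.5-fold higher and 0 lower. Among all 2324 measured genes as dim as that, 5.94% were over 1.5-fold higher and 7.06% lower. Of the 22 brighter members, 2 (KDM6A and JMJD1C) were over 1.5-fold higher and 0 lower, against 3.16% and 3.07% of the measured genes as bright as that.

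To show the DNA around the annotated starts of the higher genes, the windows of 250 bases before and 50 after each start were read from the RefSeq promoter table (GRCh38.p14). KDM5C (chrX:53225158-53225457, minus strand), KDM6A (chrX:44872938-44873237, plus strand) and KDM7A (chr7:140176934-140177233, minus strand) each have 1 window and are printed 5′ to 3′, while JMJD1C has 3 windows, between which the arrays do not choose. Capitals mark a GC box (GGGCGG), the core of a cAMP response element (TGACG), an AP-1 site (TGANTCA) and an E-box (CACGTG), each on either strand.
KDM5C: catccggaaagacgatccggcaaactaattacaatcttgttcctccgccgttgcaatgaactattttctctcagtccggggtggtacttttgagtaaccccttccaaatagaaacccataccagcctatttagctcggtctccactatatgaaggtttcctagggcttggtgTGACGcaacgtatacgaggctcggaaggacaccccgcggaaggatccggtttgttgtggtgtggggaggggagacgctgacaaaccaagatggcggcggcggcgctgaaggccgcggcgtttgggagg
KDM6A: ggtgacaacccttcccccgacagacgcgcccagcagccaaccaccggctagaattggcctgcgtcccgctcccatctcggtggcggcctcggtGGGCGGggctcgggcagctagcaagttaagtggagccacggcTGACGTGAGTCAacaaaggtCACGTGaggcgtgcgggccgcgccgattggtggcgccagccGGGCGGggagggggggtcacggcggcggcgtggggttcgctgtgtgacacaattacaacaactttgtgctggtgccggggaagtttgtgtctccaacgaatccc
KDM7A: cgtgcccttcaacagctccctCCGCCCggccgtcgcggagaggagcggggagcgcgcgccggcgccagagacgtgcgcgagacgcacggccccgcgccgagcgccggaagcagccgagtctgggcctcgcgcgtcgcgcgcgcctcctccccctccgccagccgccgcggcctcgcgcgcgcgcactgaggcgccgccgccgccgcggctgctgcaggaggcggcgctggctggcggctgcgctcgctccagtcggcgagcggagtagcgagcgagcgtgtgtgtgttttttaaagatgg
The KDM6A window held 2 GC boxes, 1 E-box, and 1 TGACG directly followed by 1 AP-1 match, printed as 1 run of capitals. The KDM7A window held 1 GC box, and the KDM5C window held 1 TGACG and no other match. Of 35116 windows of this length in the table, 45% held a GC box, 24.6% TGACG, 7.71% an AP-1 match and 7.26% an E-box. Of the 77 windows of the 48 members in the table, 59.7%, 27.3%, 5.19% and 11.7% did. The G and C content was 54.3% for KDM5C, 66.3% for KDM6A and 77% for KDM7A, against a median of 58.7% over all windows and 66.7% over the windows of members. A match describes letters and not a bound site.

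The other JmjC demethylases were within 1.5-fold. KDM5D, a close relative of KDM5C, had intensities of 255 and 317 and a log2 difference of 0.49. KDM5B, of the same subfamily, had 343 and 396 and a log2 difference of 0.29. KDM2B, which binds CpG islands and recruits a Polycomb complex, had 1681 and 2096 and a log2 difference of 0.35. All 3 KDM5 genes measured were thus above 0. The difference between them was not tested, and in the deposited values KDM5D (0.31) was above KDM5C (0.24) and none of the 3 was past 1.5-fold. KDM3B, which acts on a silencing mark, had 600 and 581 (log2 difference -0.06), and KDM2A, the relative of KDM2B, had 351 and 329 (-0.14). Over the 9 measured JmjC demethylases of 15 among the members, the median log2 difference was 0.49, and 7 were above 0. Of these 9, 4 were over 1.5-fold higher. Among all measured genes 47.5% were above 0 and 3.87% over 1.5-fold higher. With KDM1A and the JmjC proteins with other substrates added, 14 of 22 were measured. Their median was 0.23, with 8 above 0 and the same 4 over 1.5-fold higher. JmjC proteins outside the number series stand in a list below. In the deposited values 1 of the 4, KDM6A, was past 1.5-fold. The flavin enzyme KDM1A (LSD1), which works in the CoREST repressor complex, had 1466 and 1635 and a log2 difference of 0.17. KDM1B was not detected.

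KDM8, a JmjC protein linked to cell cycle genes, could be read in control cells alone. Its probe was detected on the control array only, with deposited intensities of 167 and 132. The bound was 1.37-fold lower in berberine-treated cells (1.12-fold in the deposited values), with no error of the probe allowed for. The KDM4 genes, whose enzymes act on silencing and elongation marks, were not detected at p under 0.01, and neither were KDM6B, the stress-inducible relative of KDM6A, or KDM7A-DT, a noncoding transcript next to KDM7A. With p under 0.05, KDM4A, KDM4B, KDM4C, KDM6B and KDM7A-DT could be read, with log2 differences of -0.41, -0.17, 0.00, 0.09 and 0.07. These values lie near background, where a difference is poorly read, and KDM7A-DT had intensities of 140 and 142.

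JmjC proteins with substrates outside histones were level or lower. JMJD4, a hydroxylase of a translation termination factor, had 190 and 168 (log2 difference -0.43). JMJD6, which binds splicing factors, had 214 and 208 (-0.07). JMJD8, a protein of the endoplasmic reticulum, had 532 and 473 (-0.21), and its second probe gave -0.10. The probe of the JMJD7-PLA2G4B readthrough transcript had 297 and 296 (-0.01), and its signal cannot be told apart from that of the genes it spans. All 4 were below 0, while 47.5% of all measured genes were above 0. None was past 1.5-fold, while 3.87% of all measured genes were over 1.5-fold higher and 4.09% lower. JMJD7 itself was not detected.

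**Figure D2:**
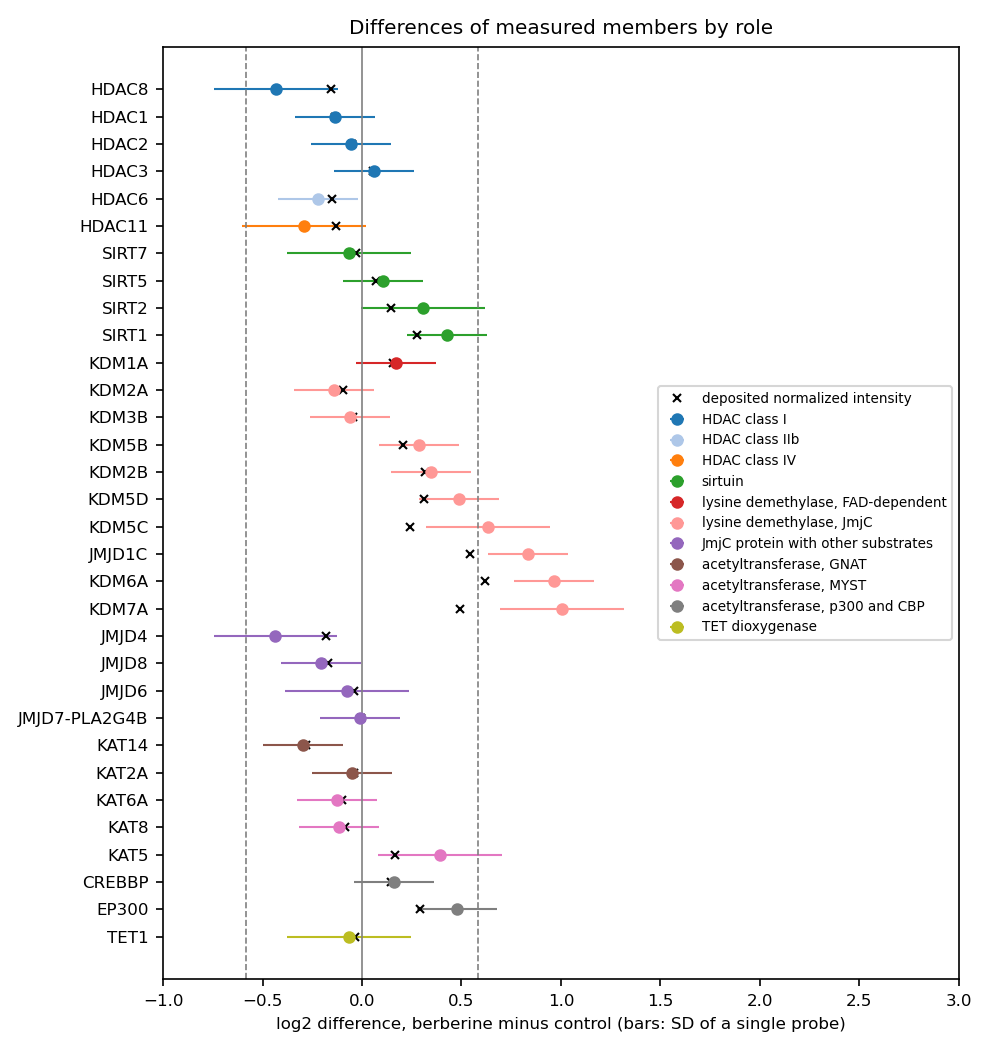
Log2 difference (berberine minus control) of the 32 measured members by role (coloured circles), with bars of 1 SD of a single probe (0.31 for dim and 0.20 for brighter members, from probe pairs) and the deposited values as crosses; dashed lines mark 1.5-fold. KDM7A, KDM6A, JMJD1C and KDM5C lie beyond the upper line, and 0 members lie beyond the lower line.

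The class I deacetylases are mostly nuclear, and all 4 were measured and within 1.5-fold. HDAC1, the partner of HDAC2 in the SIN3, NuRD and CoREST complexes, had intensities of 3443 and 3133 (log2 difference -0.14). HDAC2 had 2242 and 2163 (-0.06), and HDAC3, the enzyme of the NCoR and SMRT complexes, had 1358 and 1410 (0.06). HDAC8, which deacetylates cohesin, had 170 and 153 and a log2 difference of -0.43 (1.35-fold lower), which reached -0.59 and passed 1.5-fold with an offset of 1. HDAC6, the cytoplasmic tubulin deacetylase, had 335 and 302 (-0.22), and HDAC11, the single class IV enzyme, had 198 and 181 (-0.29). Of the 6 measured zinc-dependent deacetylases, 5 were below 0, while 47.5% of all measured genes were above 0. HDAC2 was at 0.01 when the arrays were centred on their medians in place of quantile normalization. All 6 were within 1.5-fold, while 3.87% of all measured genes were over 1.5-fold higher and 4.09% lower.

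The class IIa deacetylases shuttle between cytoplasm and nucleus and repress MEF2 factors, and none of the 4 was detected on both arrays. HDAC4 was detected in control only, with deposited intensities of 196 and 138. The bound for its transcript was 2.03-fold lower after background correction and 1.31-fold on the deposited scale, with no error of the probe allowed for. At p under 0.05 its log2 difference was -1.40. Of 358 genes detected on the control array only, 11.2% had a bound over 1.5-fold, and of the 3 members among them HDAC4 did. A single HDAC9 probe of 4, for 1 transcript form, was detected in control only, with 155 and 131. Its bound was 1.12-fold lower (1.04-fold in the deposited values). On the log2 scale this bound was 0.16, below the SD of a dim probe (0.31). The remaining HDAC9 probes and all probes of HDAC5 and HDAC7 were undetected. The class IIb enzyme HDAC10 was undetected too.

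The sirtuins that could be measured were SIRT1, SIRT2, SIRT5 and SIRT7. SIRT1, a nuclear NAD+-dependent deacetylase of histones and transcription factors, had intensities of 270 and 327 (log2 difference 0.43, 1.35-fold higher). SIRT2, mostly cytoplasmic, had 190 and 209 (0.31), while a probe for another transcript form, detected in control only, was lower (156 and 148, log2 difference -0.24). SIRT5, the mitochondrial desuccinylase, had 326 and 343 (0.11) and a second probe at 0.24. Another SIRT5 probe, detected in control only, was lower (151 and 133, log2 difference -0.62, 1.53-fold), and a further one was undetected. SIRT7, a nucleolar enzyme, had 225 and 220 (-0.07). The mitochondrial SIRT3 and SIRT4 were not detected, and SIRT6, a chromatin-bound enzyme, was read only at p under 0.05 (0.10). Over the 10 measured deacetylases and sirtuins of 18, the median log2 difference was -0.06 and 4 were above 0, against 47.5% of all measured genes.

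None of the 7 measured acetyltransferases was past 1.5-fold, while 3.87% of all measured genes were over 1.5-fold higher and 4.09% lower. The 7 ranged from -0.30 to 0.48. EP300, a transcriptional coactivator with broad acetyltransferase activity, had 230 and 283 (log2 difference 0.48, 1.39-fold higher), and its paralogue CREBBP had 741 and 819 (0.16). KAT2A, the catalytic subunit of the SAGA complex, had 1187 and 1152 (-0.05), and KAT14, of the ATAC complex, had 1157 and 952 (-0.30). In the MYST family, KAT5 (TIP60), which acts in DNA repair, had 169 and 189 (0.39), and a probe for another transcript form, detected in control only, was lower (157 and 147, log2 difference -0.28). KAT6A had 522 and 487 (-0.13), and KAT8 (MOF), which acetylates histone H4, had 432 and 407 (-0.12). KAT7 (HBO1), which acts at replication origins, was detected in berberine-treated cells only, with 142 and 160. Its bound was 1.22-fold higher (1.07-fold in the deposited values). On the log2 scale this bound was 0.29, below the SD of a dim probe (0.31). Of 380 genes detected on the berberine array only, 11.8% had a bound over 1.5-fold, and KAT7 did not. KAT2B and KAT6B were not detected. Over the 7 measured acetyltransferases of 10, the median was -0.05.

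TET1, which starts the removal of DNA methylation, was read by 2 probes on both arrays. The brighter gave 213 and 208 (log2 difference -0.07) and the other 179 and 156 (-0.53). The SD of a single probe in the dim range was 0.31, and a gap between 2 probes carries the error of both. A probe detected in control only gave 153 and 149 (-0.12). TET2 was not detected.

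**Figure D3:**
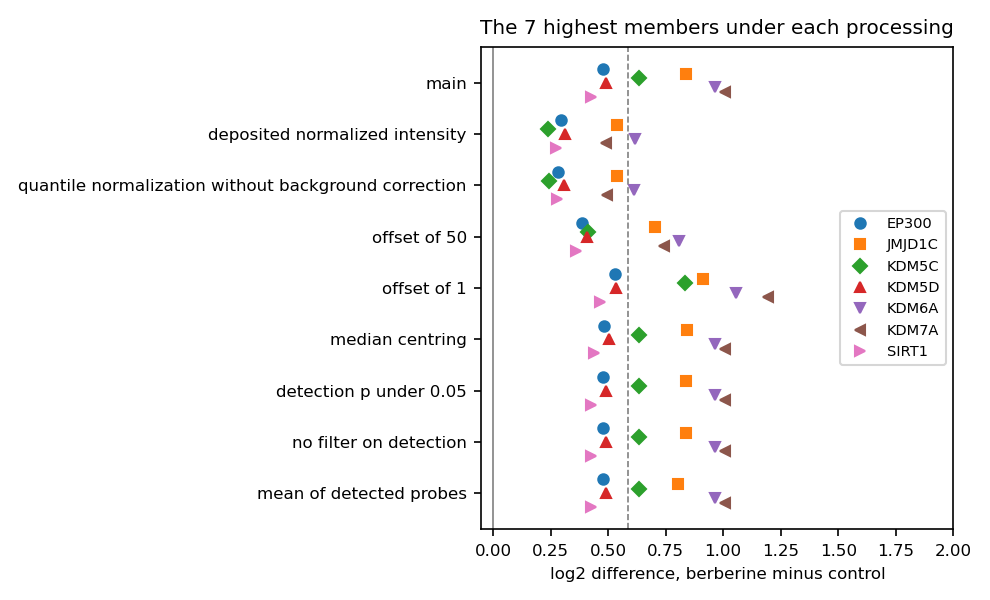
Log2 difference (berberine minus control) of the 7 highest members under the main processing and 8 alternatives; the dashed line marks 1.5-fold. KDM6A stays beyond the line in every row, while KDM5C falls below it in the deposited values (0.24), without background correction (0.24) and with an offset of 50 (0.41).

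Partners and cofactor pathways of the members were read from 10 lists, whose counts stand beside 3.87% over 1.5-fold higher, 4.09% over 1.5-fold lower and a median of -0.01 among all measured genes. Of 28 measured subunits of deacetylase complexes, 1 was over 1.5-fold lower, ING1, a reader of methylated histone H3 in the SIN3 complex (1.53-fold), and 0 higher, with a list median of -0.08. Of 45 measured subunits of acetyltransferase complexes, 2 were higher and 1 lower, around a median of 0.01. SUPT3H, of SAGA, was 1.66-fold higher, and MEAF6, of the MYST complexes, was 1.62-fold higher with a second probe at a log2 difference of 0.27. USP22, the SAGA deubiquitinase, was 1.82-fold lower. Among 11 measured acetyltransferases outside the KAT series, ATF2 was 1.71-fold higher and CLOCK, the circadian factor, 1.55-fold lower, and the list median was -0.16. None of these genes was past 1.5-fold in the deposited values.

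The list of acetyl-lysine readers and bromodomain proteins held 13 measured genes, with the chromodomain protein CBX1 among them. TRIM24, a nuclear receptor coregulator, was 1.67-fold higher, and its second probe had a log2 difference of 0.65. For the class IIa deacetylases, 22 partners and kinases were measured and 2 were higher. SIK1, a kinase that holds these deacetylases in the cytoplasm, was 2.31-fold higher, and BCL6, a repressor that recruits them, was 1.62-fold higher. The deposited values kept SIK1 and TRIM24 past 1.5-fold but not BCL6. The medians of these lists were 0.03 and -0.04. Of 6 measured JmjC proteins outside the number series, 0 passed 1.5-fold, with HIF1AN, an oxygen sensor, at a log2 difference of 0.27 and JARID2, a Polycomb cofactor, at -0.19 and a median of 0.04.

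Genes for the cofactors were read from 3 lists. Of 17 measured enzymes around oxoglutarate, succinate and fumarate, which feed or inhibit JmjC and TET enzymes, 0 passed 1.5-fold, and they ranged from -0.22 (IDH2) to 0.30 (GOT1) with a median of 0.01. Among 13 measured genes of NAD+ supply and use, NAPRT, which makes NAD+ from nicotinic acid, was 1.63-fold lower, and NAMPT, the salvage enzyme, had a log2 difference of 0.31, and the median was -0.06. Among 14 measured genes of acetyl-CoA supply, PDK3, an inhibitory kinase of pyruvate dehydrogenase, was 2.11-fold lower, with a second probe at -0.39 and a list median of 0.01. The list on DNA methylation held 11 measured genes, of which 2 were higher and 1 lower (median 0.03), against 3.87% and 4.09% of all measured genes. SINHCAF, a SIN3 complex subunit, was 2.02-fold higher and its second probe gave a log2 difference of 1.00, UHRF2, a reader of modified cytosine, was 1.83-fold higher, and MBD4, a glycosylase, was 1.58-fold lower. CXXC5, which binds unmethylated CpG and regulates TET proteins, had a log2 difference of 0.57. In the deposited values PDK3, SINHCAF and MBD4 stayed past 1.5-fold, CXXC5 (0.59) was past it too, and NAPRT and UHRF2 were not.

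**Figure D4:**
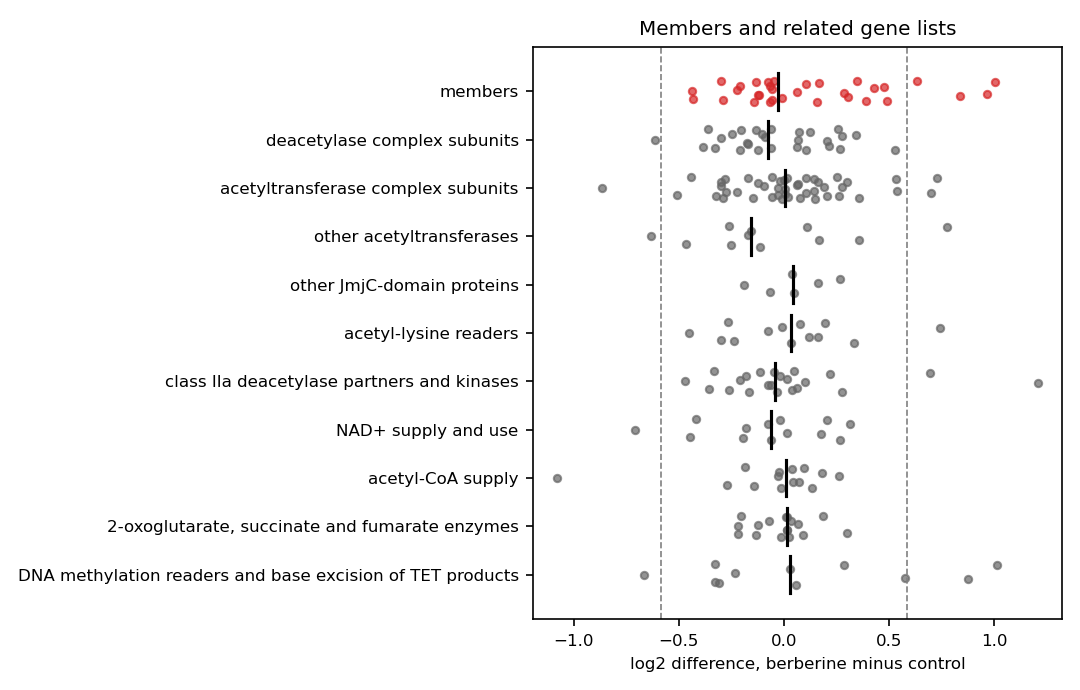
Log2 difference (berberine minus control) of each measured gene among the members (red) and in 10 related lists (grey); black bars are medians and dashed lines mark 1.5-fold. The medians lie between -0.16 and 0.04, and single genes such as SIK1 (1.21) and PDK3 (-1.08) lie apart.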

How the data were processed

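Total RNA of 1 control and 1 berberine-treated HepG2 culture was measured, each on 1 BeadChip. The labels give a Roche kit for RNA isolation and the methods of the study TRIZOL. The authors deposited non-normalized probe intensity with a detection p-value per probe from GenomeStudio, named in the submitters' processing notes without a version. Detection p-values came in steps that give 770 negative-control values per array. The authors also deposited normalized intensity on the linear scale, with an unnamed method that keeps the background; the median of both columns was 128.

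Non-normalized intensity was processed with the neqc function (limma 3.58.1, R 4.3.3; background from detection p-values, offset of 16, quantile normalization, log2), which widens folds of dim probes compared with the deposited values. Differences are on the log2 scale, treated minus control. Of the probes, 30113 had 1 gene symbol, and 30074 of these found a current symbol in RefSeq (GRCh38.p14) through the Entrez identifier. Genes seen on a single array have only a minimum fold, taken against whichever is larger on the other array, the probe's value there or the lowest value of any detected probe. This minimum allows for no error of the reading. The 1.5-fold threshold is that of the methods, which also set a p-value limit that was not used here. Samples were grouped by the labels; with 1 array per group no test was computed, and the number of arrays limits the precision. The members, lists, roles and the log2 value of 7 that separates dim from brighter genes were chosen with earlier results of these data known. Every member past 1.5-fold or detected on 1 array was named, the others by role, and in each list up to 4 genes with the largest differences, and SINHCAF stands in the DNA methylation list although it is a SIN3 subunit. A total of 8 alternatives covered the background, offset, normalization, detection filter and probe choice. The steps were tested on simulated data with changes placed only on probes well above background. Folds of probes as dim as those of KDM5C and KDM7A were therefore not tested. Other steps used Python 3.11.15, pandas 2.3.3, numpy 2.4.6 and matplotlib 3.10.9. Probe sequences were not used here, so probes shared by close relatives were not checked. A further gene with a symbol of these series is not reported here.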

Additional observations from a re-analysis of the deposited data

How the results depend on the processing

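The number of members over 1.5-fold higher was 4 in the main values, 1 in the deposited normalized intensity and 1 with quantile normalization without background correction, KDM6A in both. It was 3 with an offset of 50, without KDM5C, and 5 without a filter on detection, where SIRT3 was added. The number over 1.5-fold lower was 0 in the main values and 1 with an offset of 1 (HDAC8, -0.59). It was 1 with detection p under 0.05 (HDAC4) and 3 without a filter (HDAC4, HDAC9 and KDM8). The base was 9128 genes in the main values, 10289 with p under 0.05 and 20046 without a filter. The share of all genes past 1.5-fold was taken for the main and deposited values alone, so the other counts cannot be set against it. Of 256 recomputed member values, 243 stayed within 1 single-probe SD (0.25) of the main value, and none over 1.5-fold changed its sign. Part of this was fixed by the settings. The looser detection limit and no filter left all 32 values unchanged, and the mean of detected probes could change only 4. In the deposited values and without background correction, 6 of 32 moved in each. The 13 that moved were of JMJD1C, JMJD4, HDAC8, KDM5C, KDM6A and KDM7A, all smaller with the background kept or a larger offset. The median over members ran from -0.03 to 0.01. Medians of the 10 lists kept within that SD in 80 of 80 values. That SD is of a single probe and is wide for a median over several genes, so this count was close to fixed in advance. Of 160 list counts, 26 moved by over 1.5 times. No paired analysis was possible because each group has 1 array. Signal over background limits 17 undetected members and the folds of the dimmest measured ones.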
